A study of Rattus norvegicus with 23 samples.

Results

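Epcam, Krt7, Krt19, Krt23, Sox9, Cldn4, Cldn7, Cftr and Spp1 are genes of the bile duct epithelium and of the ductular reaction, and their RNA was followed across 3 groups of rat livers. They were chosen by symbol for what is known of these cells, and each of the 9 had a row among the 28913 gene rows of the count table. The series models portosinusoidal vascular disease in the rat, in which small portal vessels and sinusoids of the liver are damaged. Messenger RNA of whole liver from Sprague Dawley rats was sequenced as 23 libraries. LPS (7 libraries) stands for rats that had a laparotomy and an indwelling catheter reaching the portal vein, and were injected through it with lipopolysaccharide, a component of bacterial walls, in boluses of 1 mg/kg, 2 per week over 8 weeks. Selfox (10 libraries) stands for rats that ate a diet enriched in selenium over 8 weeks and had 8 weekly intravenous injections of oxaliplatin (3 mg/kg), the fluoropyrimidine 5-FU (25 mg/kg) and folinic acid (45 mg/kg). Control (6 libraries) stands for rats with no treatment, for which no operation is given, so that LPS, surgery and catheter cannot be told apart, and neither can the Selfox diet and its drugs. The labels give no age, and they do not say that each library is a different rat, so p-values measure the spread between libraries, which may be technical.

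Cholangiocytes line the bile ducts, adjust bile by secreting chloride, bicarbonate and water, and differ from hepatocytes by their keratins, tight junctions and adhesion molecules. In many chronic liver diseases, small duct-like cells multiply at the edge of the portal tract. This ductular reaction is recognised by Epcam, the Krt7 and Krt19 keratins, Sox9 and osteopontin. The epithelium is a small part of the liver, and whole-liver RNA comes mostly from hepatocytes, so the genes described here sit at low counts. In bulk tissue, fewer cells of a type and less RNA per cell cannot be told apart.

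Total counts were 70.4 to 79.2 M (mega) in LPS, 65.1 to 74.8 M in Selfox and 31.9 to 53.8 M in Control libraries. A low gene was thus seen less well in Control. Levels are given in CPM, counts per M of the library total after scaling between libraries. In Control 3 counts equal 0.0605 to 0.094 CPM, against 0.0375 to 0.042 CPM in LPS and 0.039 to 0.0451 CPM in Selfox. In 5 libraries, LPS 5, LPS 6, LPS 7, Selfox 8 and Control 55, the clock gene Dbp exceeded its antiphase partner Arntl, and these are called late-clock libraries. In Selfox 8 Dbp and Arntl were almost level, at 3.352 and 3.348 log2 CPM. Fits without the late-clock libraries are smaller, with 3 of 7 LPS libraries left out. A call lost through fewer libraries and one lost through clock phase cannot be told apart. The counts of Cldn4 were even numbers in 23 of 23 libraries, those of Sox9 and Cldn7 in 22 and those of Krt7 in 19, a pattern seen when both ends of a read pair are counted. Whether they were is not given, counting error would then be larger than the read numbers show, and fits with all counts divided by 2 were run beside the main ones. The hepatocyte markers summed to 133000 to 207000 CPM in LPS, 150000 to 173000 CPM in Selfox and 168000 to 248000 CPM in Control libraries, as the liver label has it.

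Of the 9 genes, 5 (Epcam, Krt23, Cldn7, Cftr and Spp1) have a promoter in the RefSeq table of the GRCr8 rat assembly, each covering 250 bases before to 50 bases after the gene start. The promoters of Epcam and Spp1 are shown because Epcam rose in both models and Spp1 had the lowest fold change of the genes tested in both. Capitals mark a motif match. Epcam lies on the minus strand at chr6:12649629-12649928 and Spp1 on the minus strand at chr14:5619755-5620054.
Epcam: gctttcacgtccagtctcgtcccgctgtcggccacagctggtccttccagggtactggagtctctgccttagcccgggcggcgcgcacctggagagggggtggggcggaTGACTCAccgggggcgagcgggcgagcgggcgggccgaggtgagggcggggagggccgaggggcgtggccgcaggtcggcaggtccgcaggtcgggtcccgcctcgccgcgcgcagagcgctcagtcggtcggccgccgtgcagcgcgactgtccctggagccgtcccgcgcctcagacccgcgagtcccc
Spp1: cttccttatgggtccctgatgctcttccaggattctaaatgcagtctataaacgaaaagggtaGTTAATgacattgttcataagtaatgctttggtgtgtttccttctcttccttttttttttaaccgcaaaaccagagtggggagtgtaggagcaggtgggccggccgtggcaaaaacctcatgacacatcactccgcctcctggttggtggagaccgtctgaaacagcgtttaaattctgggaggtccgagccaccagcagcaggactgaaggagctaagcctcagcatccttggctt
The capitals in Epcam are TGACTCA, an AP-1 motif that begins 141 bases before the start, and in Spp1 GTTAAT, an HNF1 motif that begins 187 bases before it. The 2 promoters differ in composition, with 75.7% G and C in Epcam and 48.7% in Spp1, against a median of 51.7% over all 33469 promoters of the table. Motifs were searched on both strands as GTTAAT (HNF1), AACCGGT (grainyhead-like), TGACTCA or TGAGTCA (AP-1, each the reverse complement of the other), GGAATG (TEAD), TGGGAA (RBPJ), ACAAAG (SOX) and CCGGAAG (ETS). The only other match in the 5 promoters was an ETS motif in Cldn7, 156 bases before the start, and the Krt23 and Cftr promoters held none of these letters. Among all promoters of the same length, 7.45% held the HNF1 letters, 4.63% the AP-1, 8.75% the ETS, 0.974% the grainyhead-like, 14.2% the TEAD, 25.7% the RBPJ and 18.8% the SOX letters. These matches describe the letters and not binding.

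The comparisons ask how these genes differed between groups given 8 weeks of portal LPS (with surgery), the Selfox diet and drugs, or no treatment. Epcam rose in both models. Krt7 and Cldn4 also rose in LPS livers, and Krt19 in Selfox livers. None of the genes fell past the threshold in either, while the lowest fold change, just short of the threshold, was that of Spp1 in LPS livers. A filter on low counts kept 15079 genes, among them 8 of the 9. Krt23 did not pass. Because a gene that passes only through the group where it is high had to differ, the counts that follow are descriptions. By edgeR's quasi-likelihood test with Benjamini-Hochberg adjustment over all genes tested (threshold 0.05), 3 of 8 were higher in LPS than in Control, where 7.71% of all genes tested were, and 0 were lower, where 6.99% of all were. The 0 lower calls in LPS stand beside 1 gene, Spp1, at an unadjusted p under 0.05, 1 by DESeq2 and 0 by limma voom. In Selfox with Control 2 of 8 were higher (14.2% of all genes) and 0 lower (14.9% of all), with 0 lower at an unadjusted p under 0.05, by DESeq2 or by limma voom too. In Selfox with LPS 0 were higher (6.86% of all) and 0 lower (7.64% of all), beside 2 higher and 2 lower at an unadjusted p under 0.05, 1 higher by DESeq2, and 1 higher and 2 lower by limma voom. The median log2 fold change of the 8 was 0.11 in LPS and 0.60 in Selfox against Control, where the median of all genes was 0.01 in each, and 0.19 in Selfox against LPS, where it was 0. The comparisons of LPS and of Selfox with Control share the Control libraries, so the values of both are set side by side and no overlap is read from them.

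**Figure D1:**
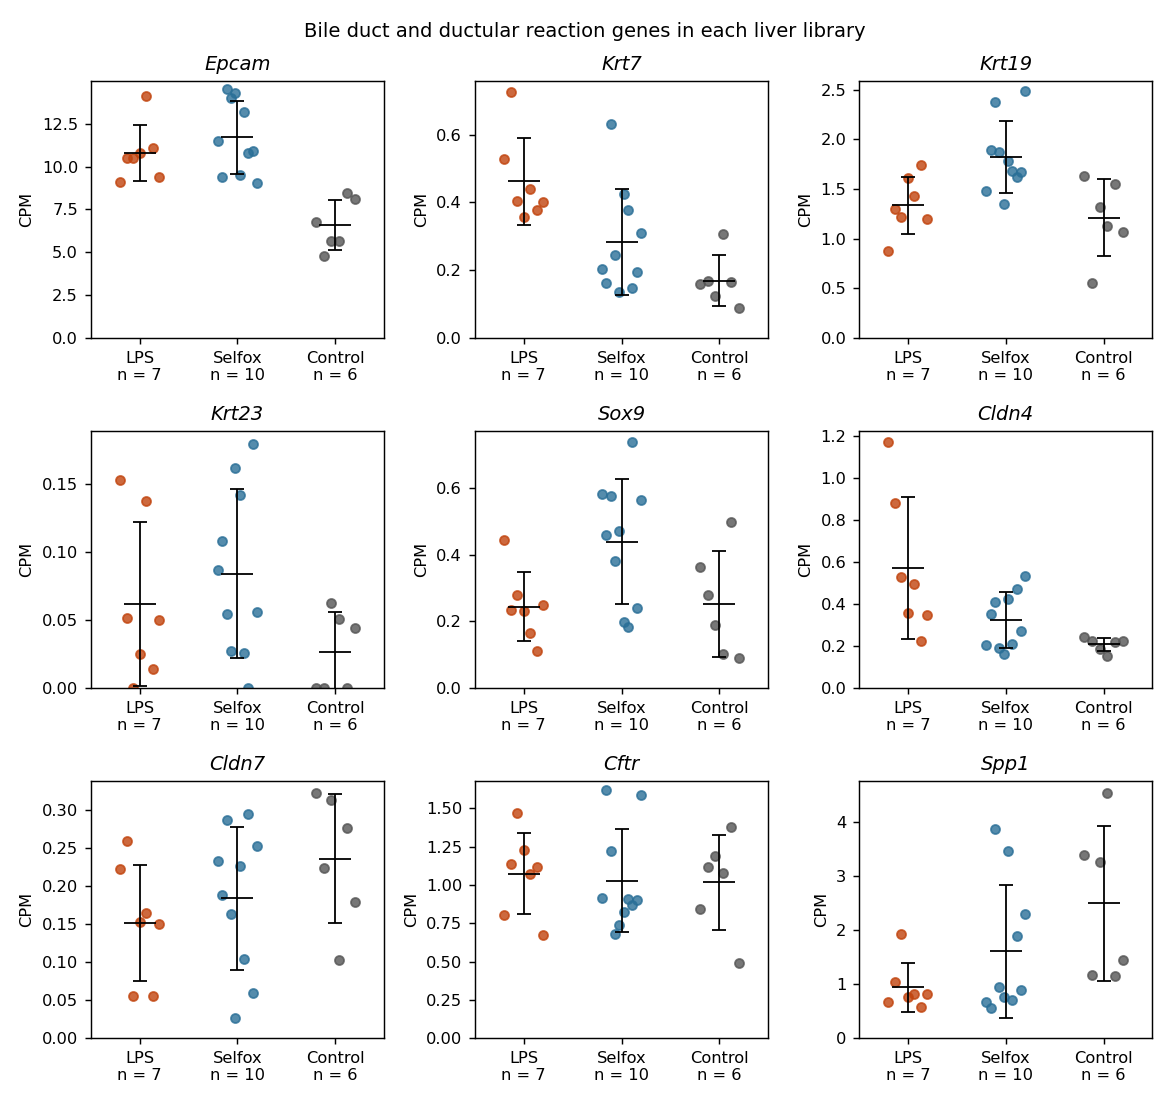
Level of each gene (vertical axis, CPM, on a linear scale of its own per panel) in the LPS, Selfox and Control libraries, with 1 point per library and the mean ± SD as bars, which are cut off at 0 for Krt23 in Control. Every LPS and Selfox library lies above every Control library for Epcam, and the Spp1 points of Control fall apart into 3 high and 3 low libraries.

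Epcam encodes an adhesion molecule of epithelial cells that in the liver marks bile duct and progenitor cells. Its level was 9.11, 10.5 and 14.1 CPM (lowest, median and highest) in LPS, 9.04, 11.2 and 14.5 CPM in Selfox and 4.81, 6.22 and 8.46 CPM in Control libraries, on 657 to 1025, 644 to 1063 and 172 to 364 reads. The LPS and Selfox ranges lay over each other, and neither touched that of Control. Of the genes tested, 1.83% had every LPS library above every Control library and 1.81% had every one below; among the 8 genes described here these were 2 (Epcam and Krt7) and 0. The same shares were 2.37% above and 2.55% below for Selfox with Control, with Epcam the 1 gene above and 0 below. Epcam rose in LPS by 0.71 ± 0.14 on the log2 scale (SE, 1.64-fold, 95% interval 0.42 to 1.01, adjusted p = 0.00214, 7 of 7 libraries above every Control) and in Selfox by 0.83 ± 0.14 (1.78-fold, 0.55 to 1.11, adjusted p = 0.000118, 10 of 10). Both rises were past the threshold in every alternative and every fit without 1 library, at 0.63 to 0.79 in LPS and 0.77 to 0.93 in Selfox without 1 library. The difference of Selfox from LPS was 0.12 ± 0.12 (interval -0.14 to 0.38, adjusted p = 0.571), so Selfox and LPS, the neighbours at the top of the order, did not differ beyond their spread.

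Krt7 encodes a keratin filament protein of duct epithelium. It stood at 0.357, 0.403 and 0.726 CPM in LPS, 0.135, 0.225 and 0.63 CPM in Selfox and 0.0894, 0.164 and 0.308 CPM in Control libraries, that is at 27 to 56, 10 to 46 and 4 to 12 reads. The 7 LPS libraries lay above every Control library, while Selfox spread over the ranges of the other groups, with 4 of 10 libraries above every Control and 7 of 10 below every LPS library. Krt7 rose 2.71-fold in LPS (log2 fold change 1.44 ± 0.36, adjusted p = 0.0104). The call stood in each fit without 1 library (1.29 to 1.69, adjusted p up to 0.0267) and with counts divided by 2 (1.41, adjusted p = 0.014). In Selfox the change was 0.74 ± 0.35 against Control (adjusted p = 0.117) and -0.70 ± 0.28 against LPS (adjusted p = 0.0996). Selfox 3 held the highest Krt7 of its group, and without it the difference from LPS was -0.91 (adjusted p = 0.0216).

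Krt19, the keratin most used to stain bile ducts, behaved otherwise. Its lowest, median and highest levels were 0.874, 1.3 and 1.74 CPM in LPS, 1.35, 1.73 and 2.49 CPM in Selfox and 0.559, 1.22 and 1.63 CPM in Control libraries. Selfox libraries were shifted upward, 7 of 10 lying above every Control, and LPS covered much the same range as Control. Krt19 rose 1.50-fold in Selfox (log2 fold change 0.59 ± 0.19, adjusted p = 0.022) and differed by 0.14 ± 0.20 in LPS (interval -0.27 to 0.56, adjusted p = 0.685). The Selfox call rested on Control 41, the lowest Krt19 library: without it the change was 0.45 (adjusted p = 0.0539). Selfox against LPS gave 0.44 ± 0.17 (adjusted p = 0.088, and 0.0448 by DESeq2 and 0.034 by limma voom).

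Krt23, a keratin of stressed and injured liver, had 0 to 11 reads in LPS (median 4), 0 to 12 in Selfox (median 5) and 0 to 2 in Control (median 1), and was at 0 in 1 LPS, 1 Selfox and 3 Control libraries. Its counts in Control all lay under the 3 counts taken as the floor, so no fold is given for it. With no filter on low counts it was not past the threshold in LPS with Control (adjusted p = 0.455), Selfox with Control (0.19) or Selfox with LPS (0.736), and a difference was not detectable at this depth.

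The 2 claudins are strands of the tight junction. Cldn4 had 0.224, 0.496 and 1.17 CPM (lowest, median and highest) in LPS, 0.162, 0.311 and 0.534 CPM in Selfox and 0.154, 0.222 and 0.242 CPM in Control libraries, from 16 to 84, 12 to 38 and 6 to 12 reads. The 6 Control libraries were close together, 6 of 7 LPS libraries and 6 of 10 Selfox libraries lay above all of them, and LPS 1 and LPS 2 stood highest. Cldn4 rose 2.71-fold in LPS (log2 fold change 1.44 ± 0.37, adjusted p = 0.012), with 1.16 to 1.58 in the fits without 1 library. Its call ended when all libraries were thinned to equal depth (1.20, adjusted p = 0.0628), while with counts divided by 2 it stood at 1.42 (adjusted p = 0.0169). In Selfox it differed by 0.62 ± 0.36 from Control (adjusted p = 0.201) and by -0.82 ± 0.29 from LPS (adjusted p = 0.0621, and 0.0283 by limma voom). Without the late-clock libraries the difference of Selfox from LPS was -1.25 (adjusted p = 0.0186), and that of LPS from Control 1.81 (adjusted p = 0.00541).

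Cldn7 had lower counts, 4 to 20 reads in LPS, 2 to 21 in Selfox and 4 to 16 in Control libraries. In CPM these were 0.0556, 0.153 and 0.259 in LPS, 0.027, 0.208 and 0.295 in Selfox and 0.103, 0.25 and 0.323 in Control, with the 3 ranges lying over each other. The log2 fold change was -0.63 ± 0.44 in LPS (interval -1.54 to 0.29, adjusted p = 0.365) and -0.36 ± 0.41 in Selfox (interval -1.20 to 0.48, adjusted p = 0.543). Cldn4 and Cldn7, members of 1 family, thus had estimates of opposite sign in each model, and the difference between the genes was not tested.

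Sox9 encodes the transcription factor that sets duct identity and is also made by hepatocytes that take on ductal traits. It lay at 0.112, 0.233 and 0.444 CPM in LPS, 0.182, 0.466 and 0.737 CPM in Selfox and 0.0894, 0.234 and 0.497 CPM in Control libraries. LPS and Control covered the same range, and 4 of 10 Selfox libraries were above every Control. The difference from Control was -0.05 ± 0.41 in LPS (interval -0.89 to 0.79, adjusted p = 0.953) and 0.79 ± 0.38 in Selfox (interval 0.01 to 1.57, adjusted p = 0.119). Control 52 was the highest Control library, and without it the Selfox change was 1.10 (adjusted p = 0.0479). Selfox 8, a late-clock library, was the highest of all. Control 55 (0.0894 CPM) and LPS 6 (0.112 CPM), also late-clock, were the lowest of their groups. Without the late-clock libraries the Selfox change was 0.49 (adjusted p = 0.333), and Selfox against LPS was 0.46 in place of 0.84 ± 0.34 (adjusted p = 0.486 in place of 0.0989). Without any 1 library, the Selfox change was 0.61 to 1.10 against Control and 0.72 to 1.06 against LPS.

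Cftr, the chloride channel through which cholangiocytes drive bile flow, had estimates near 0 in both models. Its level was 0.675, 1.12 and 1.47 CPM in LPS, 0.682, 0.906 and 1.62 CPM in Selfox and 0.491, 1.1 and 1.38 CPM in Control libraries. The groups overlapped almost fully. The log2 fold change was 0.08 ± 0.24 in LPS (interval -0.41 to 0.58, adjusted p = 0.857) and 0.02 ± 0.23 in Selfox (interval -0.44 to 0.49, adjusted p = 0.952).

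Spp1 encodes osteopontin, a secreted phosphoprotein made by bile duct cells and also by some macrophages and stellate cells. It had 0.588, 0.825 and 1.92 CPM (lowest, median and highest) in LPS, 0.568, 0.929 and 3.87 CPM in Selfox and 1.16, 2.36 and 4.54 CPM in Control libraries. Control 40, 46 and 49 stood at 3.39, 3.26 and 4.54 CPM and Control 41, 52 and 55 at 1.17, 1.16 and 1.45 CPM. In LPS 6 of 7 libraries lay below every Control, LPS 3 at 1.92 CPM being the exception, and in Selfox 6 of 10 did, while Selfox 3 and Selfox 6 stood at 3.87 and 3.46 CPM. The log2 fold change was -1.40 ± 0.48 in LPS (0.379-fold, interval -2.38 to -0.41, adjusted p = 0.0503) and -0.64 ± 0.43 in Selfox (adjusted p = 0.28). The LPS value sat at the threshold: the adjusted p ran from 0.0271 to 0.143 over fits without 1 library, was 0.0152 by DESeq2, 0.062 by limma voom and 0.0484 with counts divided by 2, and was 0.191 without the late-clock libraries. Its spread was wide, with a biological coefficient of variation of 0.567 that lay at percentile 96.7 of 1231 genes of like abundance, against percentiles 46.2 to 74.3 for the other 7 genes tested. The macrophage markers moved with group too. Their summed level was 336 to 483 CPM in LPS, 131 to 203 CPM in Selfox and 396 to 528 CPM in Control libraries. Of 9 tested, 6 fell in Selfox against Control (14.9% of all genes). In LPS 0 of 9 passed by edgeR or DESeq2 (7.71% of all genes were higher and 6.99% lower). At an unadjusted p under 0.05 there were 3, 1 higher and 2 lower, and the same numbers by limma voom. Most of the sum came from Clec4f, Marco, Cd163 and Vsig4. Cd9 and Itgax averaged 2.41 and 3.50 CPM in Selfox, 2.36 and 3.72 CPM in Control and 3.27 and 2.63 CPM in LPS. Cd68, Lgals3 and Gpnmb were lower in Selfox, at means of 11.6, 9.41 and 11.3 CPM, against 22.4, 14.3 and 15.1 CPM in Control. Their LPS means were 20.4, 13 and 11.6 CPM. Trem2, the last of the list, averaged at most 0.12 CPM in any group. The part of macrophages in the Spp1 values was not tested.

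**Figure D2:**
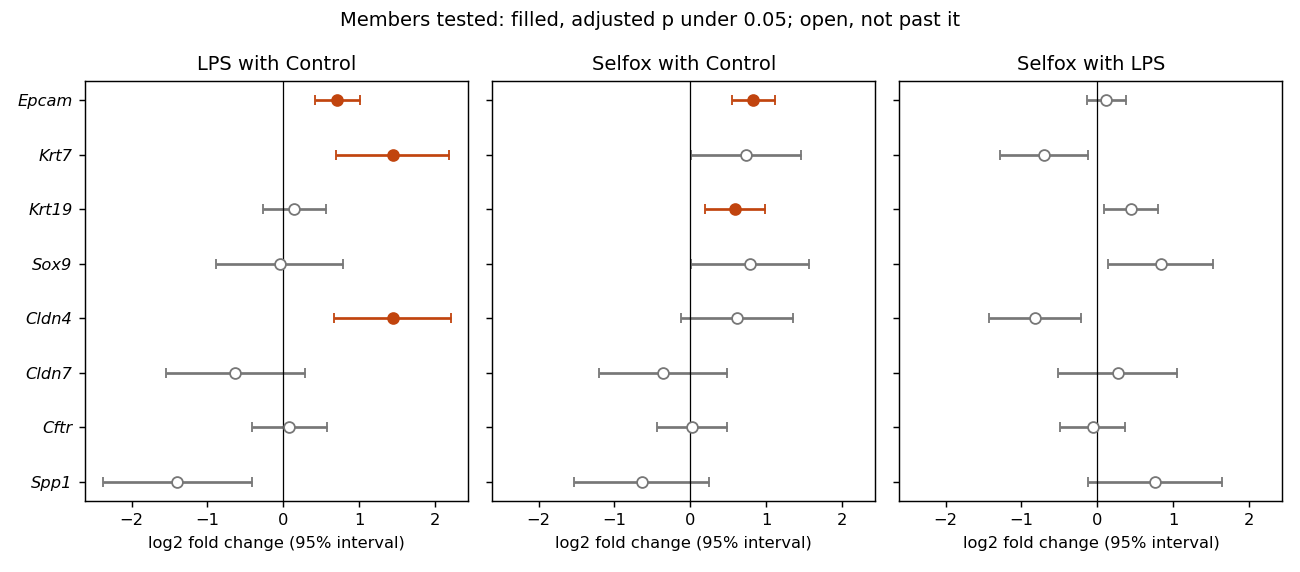
Log2 fold change with its 95% interval (horizontal axis) for the 8 genes tested in LPS with Control (left), Selfox with Control (middle) and Selfox with LPS (right), filled where edgeR's adjusted p was under 0.05. Epcam is filled in both comparisons with Control, Krt7 and Cldn4 in LPS and Krt19 in Selfox, and the Spp1 interval in LPS runs from -2.38 to -0.41.

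Reads of each gene were also set against those of Epcam in the same library, with 1 added to both counts. The ratio uses no scaling between libraries and shows unequal change only. It is not free of depth, because the added 1 raises the ratio of a low gene most where reads are few, as in Control. Krt7 and Cldn4 had LPS minus Control differences of 0.60 and 0.41 on the log2 scale (exact permutation test adjusted over the 24 ratios, 0.182 and 0.503), whereas the other genes had negative ones. The mean log2 ratio of Spp1 to Epcam was -3.58 ± 0.59 in LPS and -1.57 ± 1.01 in Control (SD, n = 7 and 6), a difference of -2.01 (exact permutation test, two-sided, p = 0.00233, adjusted 0.0559), and 6 of 7 LPS libraries lay below every Control. The ratio of Cldn7 averaged -6.18 ± 0.83 in LPS and -4.71 ± 0.60 in Control (difference -1.48, exact permutation p = 0.00583, adjusted 0.0617), and -6.10 ± 1.10 in Selfox, a difference from Control of -1.39 (exact p = 0.00949, adjusted 0.0617). For Krt7 the Selfox mean was -5.44 and the LPS mean -4.53, a difference of -0.91 (exact permutation p = 0.0103, adjusted 0.0617), with 7 of 10 Selfox libraries below every LPS library. Over 8 genes in 3 comparisons, 7 of 24 ratios had an exact p under 0.05 and 0 passed after adjustment. With 5 in place of 1 added to each count 7 passed, but the larger addition also weighs more on the less deep Control libraries. Leaving out Control 55 gave 8, Selfox 6 or Selfox 10 gave 5 each, and Selfox 3 gave 3, while 0 passed without any of the other libraries.

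**Figure D3:**
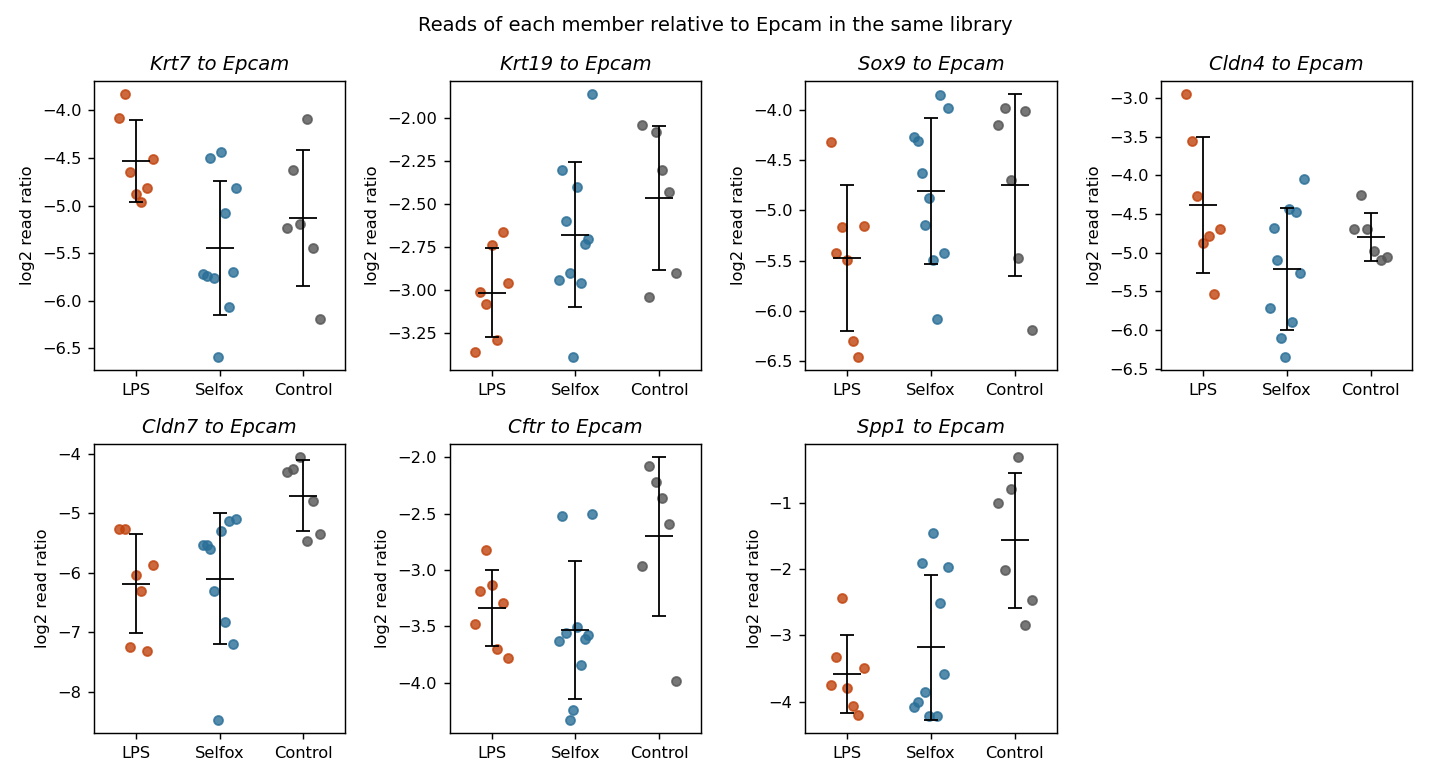
Log2 ratio of each gene's reads to those of Epcam in the same library (vertical axis, 1 added to both counts) in LPS, Selfox and Control, with 1 point per library and the mean ± SD as bars. The Spp1 ratio averages -3.58 in LPS and -3.18 in Selfox, against -1.57 in Control, and Cldn7 shows the same order, while Krt7 and Cldn4 are highest in LPS.

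How far the genes varied together was asked within groups, with group means taken off log2 CPM, over 23 libraries and 28 pairs. In 18 pairs the correlation was positive and in 10 negative, with a median Pearson r of 0.20. Counting error at few reads pulls r toward 0, so whether the 8 genes move as a unit cannot be read from these values. The pair of claudins correlated best, Cldn4 with Cldn7 at r = 0.65 (permutation p = 0.00171, adjusted 0.0479) and Spearman rho = 0.70 (permutation p = 0.00112, adjusted 0.0314). It was 0.67 within LPS, 0.70 within Selfox and 0.68 within Control, and 0.61 without LPS 1 and LPS 6. The adjusted p was 0.051 with a prior count of 0.5 and 0.289 without the late-clock libraries, where r was 0.62. Krt7 with Spp1 gave r = 0.55 (permutation p = 0.0196, adjusted 0.206) and 0.33 without Selfox 3 and Control 49, on which the relation rests in part (rho = 0.45, permutation p = 0.0592, adjusted 0.311). Sox9 with Cldn7 gave 0.47 and Sox9 with Cldn4 0.42 (adjusted p = 0.206 each, by permutation), with rho of 0.53 and 0.38 (permutation p = 0.0097 and 0.0571, adjusted 0.136 and 0.311). Epcam, the gene that rose in both models, had r of -0.33 with Cldn4 and 0.33 with Krt19, and from -0.28 to -0.06 with the others.

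**Figure D4:**
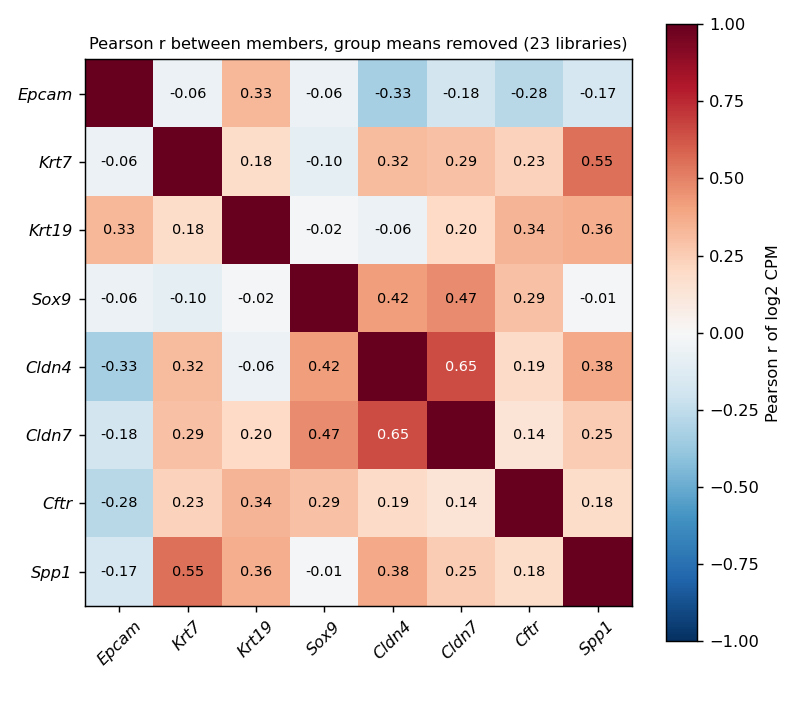
Pearson correlation between the 8 genes tested over 23 libraries, computed on log2 CPM with the group means removed (colour scale from -1 to 1, value in each cell). The highest off-diagonal value is 0.65 for Cldn4 with Cldn7, followed by 0.55 for Krt7 with Spp1, and Epcam has values between -0.33 and 0.33.

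Outside these genes, those with the most similar pattern within groups were sought among the 11712 genes that passed a cut on mean log2 CPM, as a description. Epcam was nearest to Cyb561a3 (r = 0.79, rho = 0.83) and Pycr3 (0.73 and 0.70), and Krt7 to AC116220.2 (0.79 and 0.79) and Atp6v0d1 (0.68 and 0.76). Krt19 was nearest to Ntpcr (0.72 and 0.62) and Alkbh7 (0.67 and 0.55), and Sox9 to Aass (0.85 and 0.80) and Aff4 (0.81 and 0.77). Cldn4 came with Osbpl9 (0.72 and 0.75) and Eml4 (0.71 and 0.59), and Cldn7 with Rps2 (0.73 and 0.53) and Suclg2 (0.71 and 0.71). Cftr came with Setd6 (0.76 and 0.78) and Fbxo45 (0.76 and 0.74), and Spp1 with Adam8 (0.72 and 0.69) and Ldha (0.70 and 0.64). Without the 2 libraries farthest from the middle of each gene these r values were 0.49 to 0.81. None of these nearest genes belongs to the bile duct lists described next. List genes under the cut on mean log2 CPM could not be chosen, so nothing is concluded from this.

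A wider set of 101 bile duct and ductular genes in 5 lists held 87 that were tested. Among 23 adhesion and surface genes, 5 were higher in LPS than in Control (7.71% of all genes were) and 0 lower (6.99% of all), with a median log2 fold change of 0.24. The 0 stands beside 1 lower at an unadjusted p under 0.05 and 0 by DESeq2 or limma voom. Cdh1, which encodes E-cadherin and is made by periportal hepatocytes too, had 104, 122 and 170 CPM (lowest, median and highest) in LPS and 60.2, 78 and 91.7 CPM in Control libraries, with no overlap. It rose by 0.68 ± 0.15 (adjusted p = 0.00399). The tight junction gene Ocln rose by 0.58 ± 0.13 (adjusted p = 0.00533), with 7 of 7 LPS libraries above every Control. The protease inhibitor gene Spint2 (0.24 ± 0.07) and the keratin gene Krt8 (0.37 ± 0.13), which hepatocytes also make, rose with calls lost in 4 and 9 of 13 fits without 1 library. The count of 5 became 3 without LPS 4, Control 46 or Control 49.

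In Selfox 5 of the same 23 were higher than in Control (14.2% of all genes) and 3 lower, a share near that of all genes (14.9%), with a median of 0.28. The count of 8 was 5 without Control 49 and 5 without the late-clock libraries. The calcium-binding annexin gene Anxa4 rose by 0.59 ± 0.12 (adjusted p = 0.000706), Spint2 by 0.29 ± 0.07 (adjusted p = 0.00261, 10 of 10 above every Control), Cdh1 by 0.46 ± 0.14 and Krt18, the partner of Krt8, by 0.76 ± 0.24. Ocln rose by 0.34 ± 0.12, a call lost in 9 of 16 fits without 1 library, and that of Krt18 was lost without Control 49 (adjusted p = 0.0516) and when the late-clock libraries were left out (0.0764). The hemidesmosome integrin gene Itgb4 fell by 0.35 ± 0.10 on the log2 scale (adjusted p = 0.00794), the membrane protease gene St14 by 0.54 ± 0.15 (adjusted p = 0.00798) and the claudin gene Cldn3 by 0.29 ± 0.11 (adjusted p = 0.045, lost in 11 of 16 fits). Against LPS, Cldn3 had 51.1, 57.1 and 79.3 CPM in Selfox and 83.1, 88.5 and 114 CPM in LPS libraries, with no overlap, a fall of 0.59 ± 0.10 (adjusted p = 0.000501). The share of all genes with no overlap was not counted for Selfox with LPS.

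Of 15 secretion and transport genes tested, 2 were higher in LPS (7.71% of all genes) and 1 lower, near the share of all genes (6.99%). The count of 3 was 1 without LPS 1, Control 49 or Control 52 and at most 4 without any other library, and 5 by DESeq2 and by limma voom. The water channel gene Aqp1, which vessels also make, rose by 0.72 ± 0.22 (adjusted p = 0.0299) and the ATP receptor gene P2ry2 by 0.49 ± 0.16 (adjusted p = 0.0451), calls lost in 5 and 9 of 13 fits without 1 library. The cotransporter gene Slc12a2, which loads chloride into secretory cells, fell by 0.44 ± 0.11 on the log2 scale (adjusted p = 0.00949). In Selfox 4 were higher (14.2% of all genes) and 1 lower (14.9% of all), and the count of 5 was 3 without Selfox 3, Selfox 4, Selfox 8, Control 41 or Control 52. The carbonic anhydrase gene Car2 had 6.95, 10.7 and 14.5 CPM in Selfox and 4.08, 5.58 and 6.49 CPM in Control libraries, all 10 Selfox libraries lying above every Control, a rise of 0.97 ± 0.16 (adjusted p = 0.000171). The bile acid transporter gene Slc10a2 rose by 2.43 ± 0.68 (adjusted p = 0.0102, not past the threshold by limma voom), with Selfox 8 highest at 12.3 CPM. P2ry2 (0.42 ± 0.15) and Ggt1, the glutamyl transferase (0.77 ± 0.28), rose with calls lost in 10 and 9 of 16 fits. The anion exchanger gene Slc4a2 fell by 0.23 ± 0.06 on the log2 scale (adjusted p = 0.00761). Cftr, described above, passed in neither.

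**Figure D5:**
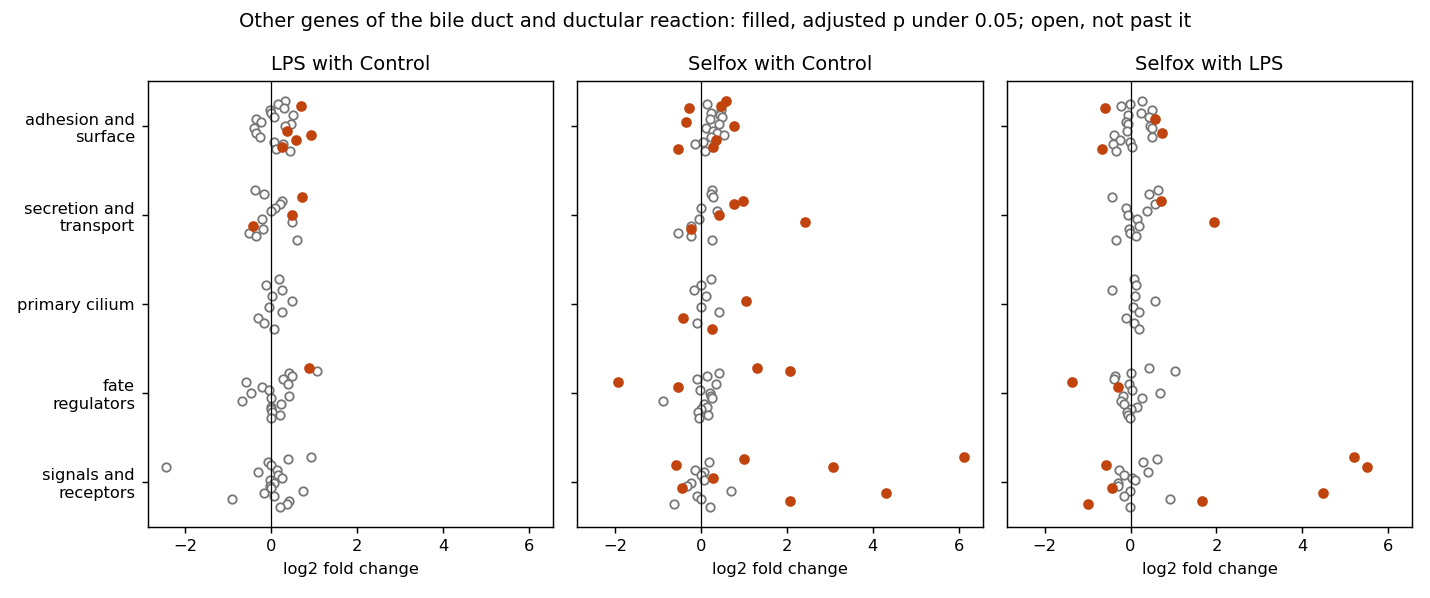
Log2 fold change (horizontal axis) of each tested gene of the 5 wider lists (rows) in LPS with Control (left), Selfox with Control (middle) and Selfox with LPS (right), filled where edgeR's adjusted p was under 0.05. Adhesion genes past the threshold in LPS all lie to the right of 0, and the largest values are those of Ccl2, Lif and Il6 in Selfox.

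The 10 genes of the primary cilium, through which cholangiocytes sense bile flow, gave 0 calls in LPS by edgeR and by DESeq2. Of all genes, 7.71% were higher in LPS and 6.99% lower. The cilium list had 1 gene at an unadjusted p under 0.05, and 1 call each by limma voom and in the fit without the late-clock libraries. In Selfox 2 were higher (14.2% of all genes) and 1 lower (14.9% of all), and 1 in all passed without Control 40. The transcription factor gene Glis3 (1.05 ± 0.33, lost without Control 40) and the polycystin gene Pkd2 (0.25 ± 0.09, lost in 8 of 16 fits) rose. Among 19 regulators of biliary fate, the 1 call in LPS was Ctgf (Ccn2), a matricellular gene activated by YAP, at 0.87 ± 0.27 (adjusted p = 0.0308), lost in 6 of 13 fits, without the late-clock libraries and by limma voom, which called 0 higher and 1 lower. The share of all genes higher in LPS was 7.71%. The count of 1 was 0 without LPS 4, LPS 6, Control 46, Control 49 or Control 52 and 4 without Control 55. In Selfox 2 were higher (14.2% of all genes) and 2 lower (14.9% of all). Ctgf rose by 1.31 ± 0.26 (adjusted p = 0.00065) and its relative Cyr61 (Ccn1) by 2.08 ± 0.49 (adjusted p = 0.00303). The Notch target Hey1 had 0.0821, 0.152 and 0.406 CPM in Selfox and 0.304, 0.844 and 1.03 CPM in Control libraries, with 8 of 10 Selfox libraries below every Control, a fall of 1.92 ± 0.30 (adjusted p = 8.69e-05). The hepatocyte regulator Hnf4a fell by 0.53 ± 0.09 on the log2 scale (adjusted p = 0.000198), and 492 and 708 CPM were its Selfox and Control means.

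Of 20 genes for ductular reaction signals and osteopontin receptors, 0 passed in LPS against Control by edgeR, DESeq2 or limma voom. Of all genes, 7.71% were higher and 6.99% lower there. Of the 20, 1 had an unadjusted p under 0.05, while edgeR on the 2 groups alone called Itgav (0.24, adjusted p = 0.023). In Selfox 6 were higher (14.2% of all genes) and 2 lower (14.9% of all). The osteopontin receptor gene Cd44 had 3.43, 6.95 and 16.8 CPM in Selfox and 2.66, 3.73 and 5.52 CPM in Control libraries, with 6 of 10 Selfox libraries above every Control, a rise of 1.01 ± 0.30 (adjusted p = 0.0132). The integrin chain gene Itgav, whose product also binds osteopontin, rose by 0.28 ± 0.09 (adjusted p = 0.0246). Both calls were lost when the late-clock libraries were left out (adjusted p = 0.0633 and 0.0795), as were those of Krt8 and P2ry2 in LPS and of Ocln, Cldn3, Ggt1 and Pkd2 in Selfox. The growth factor gene Pdgfb rose by 2.07 ± 0.34 (adjusted p = 0.000114). The cytokine genes Ccl2, Lif and Il6 averaged 32.7, 1.32 and 2.79 CPM in Selfox, against 0.455, 0.0588 and 0.33 CPM in Control. Selfox libraries spread widely, with lowest, median and highest values of 0.923, 14.7 and 98 CPM for Ccl2. These were 0.156, 0.881 and 3.85 CPM for Lif and 0.174, 2.17 and 9.39 CPM for Il6. All 3 genes overlapped with Control, whose highest values were 1.13, 0.242 and 0.928 CPM. Ccl2 and Il6 did not pass by limma voom, and the Il6 call was also lost without the late-clock libraries (adjusted p = 0.0659) and without Control 49 (0.0504). Hgf, the hepatocyte growth factor made by stellate and endothelial cells, fell by 0.59 ± 0.14 on the log2 scale (adjusted p = 0.00311), and Lgr4, a receptor for R-spondins, by 0.45 ± 0.10 (adjusted p = 0.00195).

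Markers of other cells that make some of these genes were measured beside them. Mesothelial cells also carry Krt7 and Krt19, and their markers summed to 13.4 to 30.9 CPM in LPS, 4.07 to 33.4 CPM in Selfox and 11.7 to 21.3 CPM in Control libraries, with Calb2 listed at 0. Of 6 tested, 0 passed in LPS or in Selfox against Control by edgeR, DESeq2 or limma voom, and 1 in LPS (Wt1) and 0 in Selfox had an unadjusted p under 0.05. Of all genes, 7.71% were higher and 6.99% lower in LPS, and 14.2% higher and 14.9% lower in Selfox. LPS 1 and LPS 2, which had the most Cldn4 and Krt7 of their group, held 30.9 and 29.3 CPM of the mesothelial markers. Gpm6a alone gave 28 CPM of the LPS 1 sum. LPS 1 was the lowest LPS library for Wt1 (0.277 CPM) and Upk3b (0.222 CPM). LPS 2 was the highest for Wt1 (0.7 CPM), Upk1b (0.415 CPM) and Lrrn4 (0.622 CPM). The stellate cell and fibroblast markers summed to 386 to 619 CPM in LPS, 304 to 609 CPM in Selfox and 319 to 481 CPM in Control libraries, and Col1a2 was listed at 0. Of 9 tested, 0 passed in LPS by edgeR or limma voom and 2 by DESeq2, with 2 (Des and Dcn, both higher) at an unadjusted p under 0.05. In Selfox 2 were higher (14.2% of all genes) and 1 lower (14.9% of all). The intestinal sum ran from 16 to 160 CPM in LPS, 4.42 to 304 CPM in Selfox and 8.54 to 78.8 CPM in Control libraries. Cdh17 gave 158 CPM of the highest LPS sum and 301 CPM of the highest Selfox sum, while the gut regulators Cdx1 and Cdx2 had medians of at most 0.0906 CPM in any group. Pancreatic acinar markers summed to at most 23.2 CPM in any library, with Prss1, Pnlip and Ptf1a listed at 0. The part of these cells in the values above was not tested.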

How the data were processed

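RNA of 23 rat liver libraries was counted per gene. Per the submitters' processing notes the authors used FastQC, Trim Galore, STAR 2.7.9a and featureCounts of Subread 2.0.3, and they deposited whole-number read counts with no scaling. Genome build, annotation and strand setting were not given in the sources used here; reads shared by overlapping or near-identical genes are uncertain. Groups came from the labels, and no library or column was left out.

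Genes were kept by filterByExpr of edgeR (minimum count 10), scaled by TMM, and all 3 groups fitted together with the robust quasi-likelihood test and Benjamini-Hochberg adjustment (R 4.3.3, edgeR 4.0.16, limma 3.58.1, DESeq2 1.42.0). A standard error was taken as the absolute log2 fold change over the root of its F statistic. CPM used TMM-scaled library sizes, log2 CPM a prior count of 2, and ratios to Epcam exact permutation over libraries. Correlations used 1e+05 permutations within groups. The fit was also run on counts simulated from its own dispersions, which cannot show how well its model suits these low counts. Counting error and the floor of 3 counts cover counting only.

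The genes and lists were chosen with earlier results of these data known. Named genes were the 9 genes, up to 4 genes past the threshold per list and comparison by adjusted p (where none passed, the lowest), and the 2 genes most like each. Krt8, Krt18, Cd44, Itgav, Hgf, Ggt1, Tnfrsf12a and further values of genes outside that rule were chosen after their values were seen. Ccn1 and Ccn2 are held as Cyr61 and Ctgf, matched through RefSeq synonyms. Of 101 list genes 99 had a row. Some list genes that enter the counts are not reported here by name. Alternative settings were upper-quartile or RLE factors, a minimum count of 50 or no filter, limma voom with sample weights, DESeq2, 2 groups alone, equal depth, counts divided by 2, leaving out each library or the late-clock libraries, and a replicate block. Replicate numbers shared by LPS and Selfox did not pair the libraries.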

Additional observations from a re-analysis of the deposited data

Results flagged for a closer look

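No library stood far from the rest of its group: over 45 groups of values of the genes and of their ratios to Epcam, 0 passed Dixon's test, where chance would flag about 1 in 20. None of the 8 genes tested differed between the models past the threshold. In the wider lists 15 of the 87 genes tested did, by the test of Selfox against LPS itself (log2 fold change, edgeR's quasi-likelihood test with Benjamini-Hochberg adjustment over all genes). Of all 15079 genes tested, 2187 differed in that comparison, 6.86% being higher and 7.64% lower. The 15 of 87, some higher and some lower, were thus near the share of all genes. The share of all genes with no overlap between Selfox and LPS was not counted. Of adhesion and surface genes, Cldn3 (-0.59) and St14 (-0.66) were lower in Selfox than in LPS, with all 10 Selfox libraries below every LPS library, and Lamb3 (0.73) and Itga3 (0.56), which encode a laminin chain and an integrin chain, were higher. Of transport genes, Car2 (0.72) and Slc10a2 (1.94) were higher. Of fate regulators, Hey1 (-1.35) and Hnf4a (-0.29) were lower. Of signals and receptors, Pdgfb (1.67), Lif (4.47), Ccl2 (5.20) and Il6 (5.51) were higher, and Lgr4 (-0.43), Hgf (-0.58) and Tnfrsf12a (-0.99), the receptor for the ligand TWEAK, were lower. Il6 had 0.174 to 9.39 CPM in Selfox and 0 to 0.167 CPM in LPS libraries, so its fitted fold depends on a group near 0, as does that of Lif. Calls of Slc10a2 were lost in 6 of 17 fits without 1 library and those of Hnf4a without LPS 5 or LPS 7. Without the late-clock libraries Slc10a2, Hnf4a and Lamb3 lost theirs. Ccl2 and Il6 were not past the threshold by limma voom.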

How the results depend on the processing

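Of fold changes of single genes 1113 of 1231 kept direction and side of the threshold without 1 library, and 740 of 819 under the other settings. Of ratios to Epcam 297 of 322 and 35 of 42 did. Counts of genes called per list stayed within a factor of 1.5 in 203 of 230 and 143 of 160 cases. Genes changed in Selfox with LPS, 0 of 8 in the main fit, were 1 by DESeq2, 3 by limma voom, 1 without the late-clock libraries and 0 to 1 without 1 library. In Selfox with Control the 2 became 1 (without Control 41) to 3 (without Control 52). Over all genes, 2217 changed in LPS with Control, 1409 without Control 49 to 2723 without Control 55. In Selfox with LPS 2187 changed, and 1434 without the late-clock libraries. With a replicate block for numbers 1 to 7 it was 1259, against 1617 in those 14 libraries without the block. The numbers do not pair the libraries: r of same-numbered libraries was -0.06 to 0.16, and 1 of 7 was nearest to its own number. Values near 0 changed sign. For LPS with Control, Sox9 (-0.05) was 0.11 by limma voom, 0.03 without the late-clock libraries and -0.26 to 0.24 without 1 library. Cftr (0.08) was -0.01 by limma voom and -0.06 to 0.19 without 1 library, and Krt19 (0.14) 0 to 0.25. For Selfox with Control, Cftr (0.02) was -0.08 by limma voom, -0.10 without the late-clock libraries and -0.12 to 0.14 without 1 library. For Selfox with LPS, Cldn7 (0.27) was -0.01 without the late-clock libraries and Cftr (-0.06) -0.16 to 0.03 without 1 library. Ratios to Epcam past the threshold, 0, were 7 with 5 added to counts and 0 to 8 without 1 library. The Cldn7 ratio in Selfox with LPS (0.09) was -0.25 without the late-clock libraries and -0.10 to 0.35 without 1 library, and the Sox9 ratio in Selfox with Control -0.34 to 0.10. Correlated pairs, 1, were 0 with a prior count of 0.5 and 0 without the late-clock libraries. The cause was not tested. Krt7, Cldn4, Sox9 and Cldn7 have no value at a minimum count of 50. Few reads limit these genes, and Krt23 most.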
